A study of Dreissena polymorpha with 12 samples.

Results

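The zebra mussels (Dreissena polymorpha) collected at Flix Factory on the Ebro River were compared with the mussels of the other 4 sampled Ebro sites, Mequinenza, Faio, Riba Roja and Flix Reservoir. The samples were taken by their population label: 2 arrays from Flix Factory and 8 from the other Ebro sites, 10 of the 12 arrays of the series. The other 2 arrays came from Sitjar, a dam 200 km from the river, and entered the fit but not the comparison. All animals were wild mussels collected in spring, with no treatment and no age given, and each array held the RNA of a pool of 5 individuals, so that differences between animals of a pool cannot be seen. The labels give gills, but the treatment text describes taking part of the body of each animal, and the tissue could not be checked against marker genes because the array names its sequences by database accession. In pooled tissue RNA, fewer cells of a type and less RNA per cell cannot be told apart.

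The zebra mussel is an invasive freshwater bivalve that filters large volumes of water over its gills, which makes the gill the tissue in closest contact with what the water carries. Mequinenza lies farthest upstream of these sites, Faio and Riba Roja follow, and Flix is the most downstream place. Flix is known for a chlor-alkali works whose waste, with mercury and organochlorine compounds, settled in the reservoir there, and filter feeders such as mussels are used to monitor such compounds. The labels give no more about the factory than its name, and the files hold no measurement of contaminants.

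Each value is a log2 signal of 1 sequence on 1 array, averaged over those of its probes that stood well above background on every one of the 12 arrays, and quantile normalised, so that 1 unit is a 2-fold change. Of the 3541 sequences on the array, 1226 had such a probe, 780 of them with at least 2. Replicates 1 lay on slide 1 and replicates 2 on slide 2, and the slide was a block in the limma fit. A site kept its array position from slide 1 to slide 2, and therefore site and position cannot be told apart. The share of probes well above background was 33.0% and 30.3% on the 2 Flix Factory arrays. On the other 8 Ebro arrays it was 22.5% to 32.9%, lowest on Mequinenza replicate 2. The median processed signal (background-subtracted, before normalisation) was 7.19 and 3.22 at Flix Factory, the lowest array on each slide. It was 8.33 to 11.43 on the other Ebro arrays of slide 1 and 4.86 to 15.24 on those of slide 2. The part of these measures in the results below was not tested. The labels do not say whether the 2 pools of a site were collected separately, and the p-values reflect only pool-to-pool spread, which may be technical.

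The first question was whether Flix Factory differed from the mean of the other 4 Ebro sites. No sequence passed the threshold of 0.05 after Benjamini-Hochberg adjustment over the 1226 sequences (0% called), and the smallest adjusted p in the limma fit was 0.0713. It was shared by EY436962, with a log2 difference of -1.03 (SE 0.14), and EY436647, with 1.35 (SE 0.19). At an unadjusted p under 0.05 there were 138 sequences (11.3%), 65 higher (5.3%) and 73 lower (5.95%) at Flix Factory. The median 95% confidence interval of a sequence reached 0.41 to either side on the log2 scale, before adjustment. Leaving out any 1 of the 12 arrays also gave 0 calls, with the smallest adjusted p of limma between 0.0521 and 0.355, while the count at an unadjusted p under 0.05 was 45 without Flix Factory replicate 2 and 253 without Mequinenza replicate 1. A site that lost an array in these fits was represented by 1 array, which was assumed to vary like the arrays of the other sites. Without the slide as a block there were 0 calls and 53 sequences at an unadjusted p under 0.05.

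Among these 138 sequences, the 65 higher ones had a median log2 difference of 0.58, and the 73 lower ones had a median of -0.65, against 0.03 over all 1226. The largest differences were on the lower side, down to -4.60, with 2.65 as the highest. At least 2-fold differences were found for 34 of the 1226 sequences, 15 higher and 19 lower, with or without a small p. The 8 highest and the 8 lowest differences among the 138 are described next. None of the 16 was called, and their adjusted p from limma lay between 0.0713 and 0.441.

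**Figure D1:**
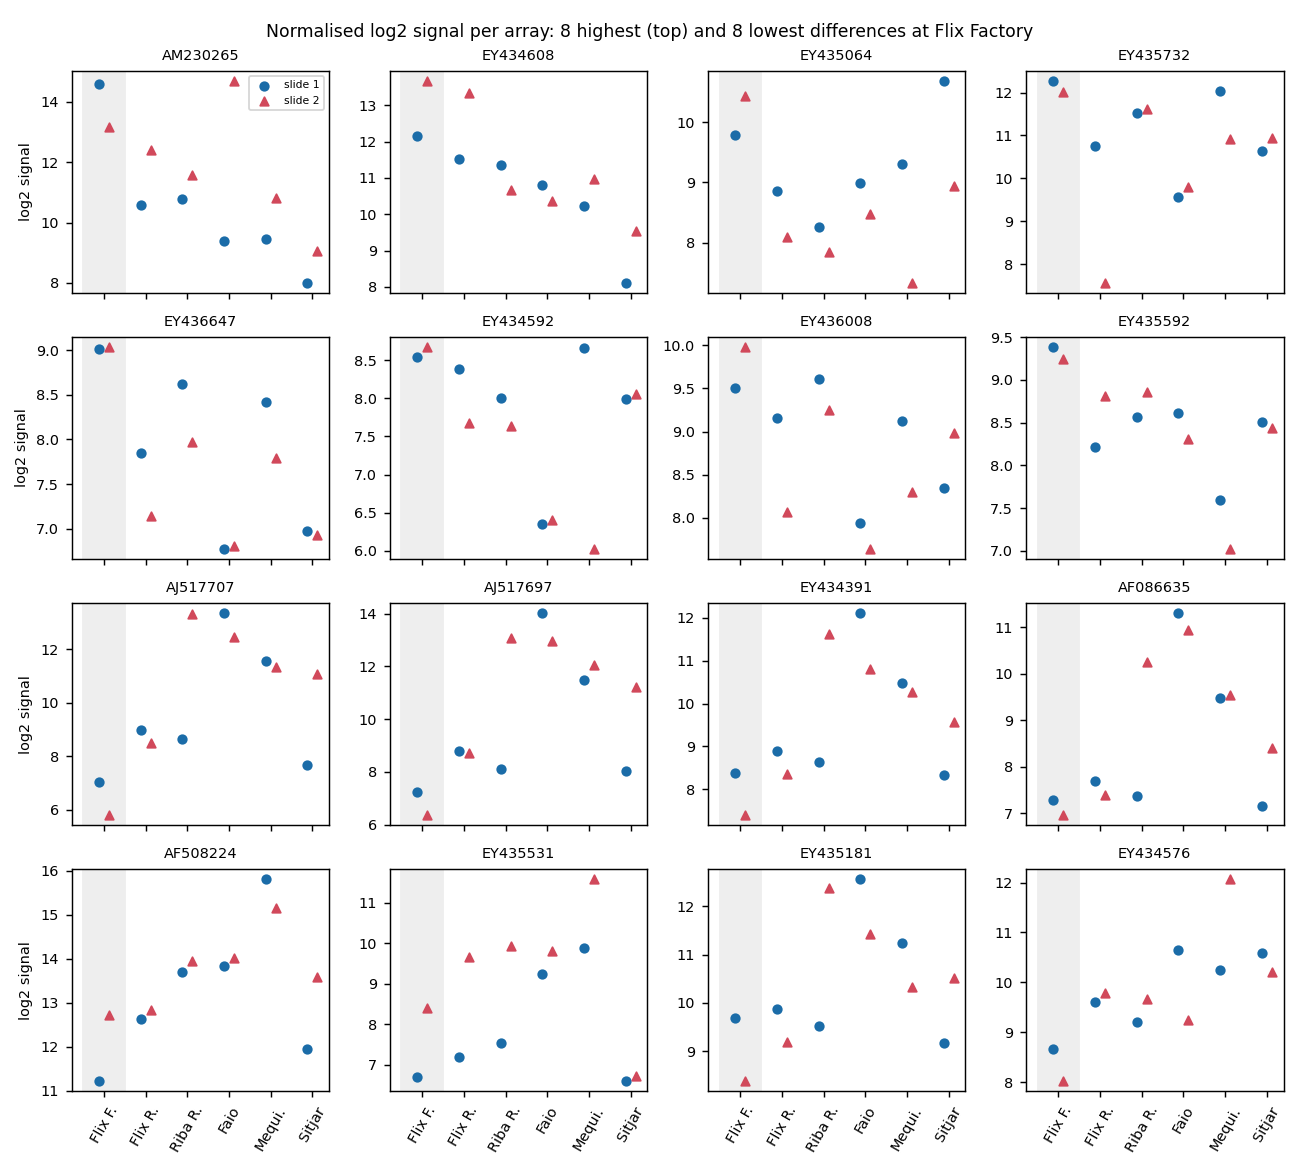
Normalised log2 signal (vertical axes, each with its own range) of the 16 sequences with the highest and lowest differences, by site (horizontal axis, from left Flix Factory, Flix Reservoir, Riba Roja, Faio, Mequinenza, Sitjar), with 1 point per array (circles slide 1, triangles slide 2). For EY435064, EY436647 and EY435592 both Flix Factory arrays lie above all 8 other Ebro arrays, and for AJ517707, AJ517697, AF086635 and EY434576 both lie below them.

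EY436647 had the smallest p on the higher side. Its log2 signal was 9.01 and 9.03 on the 2 Flix Factory arrays, and 6.78, 7.82 and 8.62 as the lowest, median and highest of the other 8 Ebro arrays. Both Flix Factory arrays were above all others, and the nearest array was Riba Roja replicate 1. The difference was 1.09 on slide 1 and 1.61 on slide 2, and against single sites it ran from 0.72 for Riba Roja to 2.23 for Faio. On the Sitjar arrays the log2 signal was 6.98 and 6.93, near the lowest Ebro array. The value rests on 1 of the 3 probes of the sequence, and it was 0.31 when the dim probes were averaged in.

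EY435592 lay at 9.39 and 9.24 at Flix Factory, against 7.02, 8.44 and 8.86 as the lowest, median and highest of the other 8 arrays. The groups did not overlap, and Mequinenza replicate 2 was the lowest array. Flix Factory differed by 1.07 on the log2 scale (SE 0.21, limma adjusted p = 0.147), but by 0.02 with the dim probes averaged in, since 1 of its 5 probes passed the filter.

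EY435064, measured by 1 of 5 probes, was the third of the 8 without overlap. Its log2 signal was 9.79 and 10.43 at Flix Factory, against 7.34, 8.37 and 9.30 as the lowest, median and highest of the other 8 arrays. Mequinenza held both the lowest and the highest of these 8. The difference was 0.94 on slide 1 and 2.49 on slide 2 (1.71 in all, SE 0.43, limma adjusted p = 0.196), and 0.86 without Flix Factory replicate 2. One Sitjar array, replicate 1, was brighter than both Flix Factory arrays, at 10.68.

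For the other 5 sequences on the higher side the groups overlapped. AM230265 had the largest difference, 2.65 (SE 0.97, limma adjusted p = 0.408), with 14.57 and 13.14 at Flix Factory and 9.39, 10.81 and 14.69 as the lowest, median and highest of the other 8 arrays. Faio held both extremes, with replicate 1 the lowest and replicate 2 above both Flix Factory arrays. All 4 probes of AM230265 had differences of 2.50 to 2.81, so the probes agreed while the arrays did not: the difference was 4.52 on slide 1 and 0.78 on slide 2, and 0.90 without Flix Factory replicate 1. EY435732, with 2 probes, had 12.27 and 12.01 at Flix Factory and 7.57, 10.83 and 12.04 as the lowest, median and highest elsewhere in the river, with Flix Reservoir replicate 2 the lowest. Flix Factory was the highest of the 5 Ebro sites on both slides for this sequence. EY434608 was also highest on both slides, at 12.14 and 13.68 against a median of 10.88, but Flix Reservoir replicate 2 came close, at 13.35, and the difference of 1.75 was 0.24 with dim probes included.

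EY434592 and EY436008 each had an array from another site as bright as Flix Factory on slide 1. EY434592 was at 8.53 and 8.67 at Flix Factory and at 8.66 on Mequinenza replicate 1, with a difference of 1.21 that was 0.75 under normexp background correction and 0.78 without Flix Factory replicate 2. EY436008 was at 9.51 and 9.98, with Riba Roja replicate 1 at 9.61, and its difference of 1.11 was 0.40 over probes bright at any 1 Ebro site, 0.20 with all dim probes and 0.69 without Flix Factory replicate 2.

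The lower side held the largest differences. AJ517707 had a log2 signal of 7.04 and 5.79 at Flix Factory, against 8.51, 11.45 and 13.35 as the lowest, median and highest of the other 8 Ebro arrays. Both Flix Factory arrays were below all others, the nearest being Flix Reservoir replicate 2 and the brightest Faio replicate 1. The log2 difference was -4.60 (SE 1.12, 24.3-fold, limma adjusted p = 0.179), with -3.60 on slide 1 and -5.61 on slide 2. All 3 of its tested probes had differences between -4.61 and -4.52. The SE comes from disagreement between the arrays of a site after the slide block, and the 2 Riba Roja arrays were at 8.66 and 13.33. The SD of the other 8 Ebro arrays, 2.05, also holds differences between sites, which do not enter the SE.

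AJ517697 had a similar profile, at 7.22 and 6.36 against 8.11, 11.77 and 14.02 as the lowest, median and highest of the other 8 arrays. Its difference was -4.37 (SE 1.08, limma adjusted p = 0.191), measured by 1 of its 4 probes. Its Flix Factory values were also near the low end of the tested range. AF086635 was at 7.28 and 6.96, with 7.36, 9.51 and 11.30 as the lowest, median and highest elsewhere, so the groups were apart by less than 0.1. Its 5 probes all had lower values, with differences of -2.34 to -1.95. EY434391 was at 8.38 and 7.40, and EY435181 at 9.68 and 8.38. Their differences of -2.26 and -1.78 each rest on 1 probe and were -0.15 and -0.45 with dim probes included. Flix Factory replicate 1 lay above Flix Reservoir replicate 2 for both, and for EY435181 also above Riba Roja replicate 1, at 9.53, so Flix Factory was not the lowest site on slide 1 for EY435181. Over probes bright at any 1 Ebro site they were -0.67 and -0.90, and for EY435181 the difference was -0.98 without Flix Factory replicate 2.

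These 5 sequences, grouped after their values were seen, had the same array as their lowest Ebro array, Flix Factory replicate 2. It was also the lowest Ebro array for EY434576, which is not in the group. The 5 sequences also varied alike elsewhere. Relative to each sequence's mean over the 10 Ebro arrays, they stood 2.10 to 3.74 higher on Faio replicate 1 and 1.43 to 3.23 higher on Riba Roja replicate 2. On Riba Roja replicate 1 they were at -2.17 to -0.93, and on the 2 Flix Reservoir arrays at -1.59 to -0.59. Outside the river, they were at -2.43 to -1.30 on Sitjar replicate 1 and at -0.43 to 0.99 on Sitjar replicate 2. Their low values at Flix Factory thus shared the direction of Flix Reservoir and of 1 of the 2 Riba Roja pools, and the 2 Riba Roja pools stood on opposite sides of the mean. The files hold no sequence letters, so whether the 5 entries overlap in sequence was not tested.

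**Figure D2:**
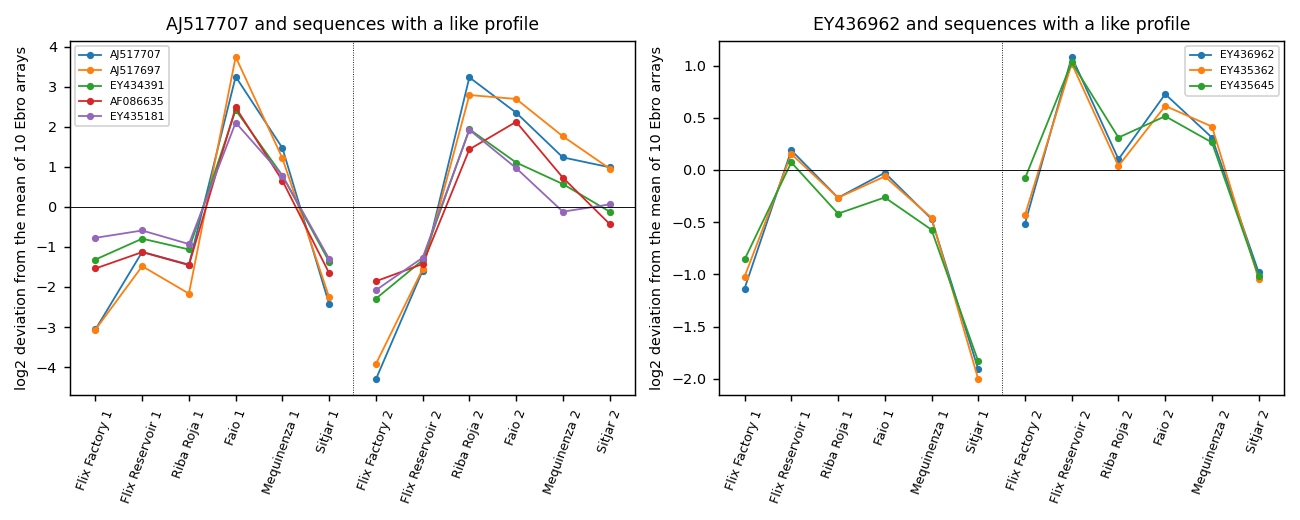
Deviation of each sequence from its own mean over the 10 Ebro arrays (log2, vertical axis) on each array (horizontal axis, slide 1 left of the dotted line and slide 2 right of it), with 1 line per sequence and slide. On the left, 5 sequences are lowest on Flix Factory replicate 2, and on the right 3 sequences lie within 0.43 of each other on every Ebro array.

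The other 3 of the 8 lowest had another profile. AF508224 was at 11.21 and 12.72 at Flix Factory, against 12.63, 13.89 and 15.80 as the lowest, median and highest of the other 8 arrays, with both Mequinenza arrays the brightest. Its difference was -2.02 (SE 0.40, limma adjusted p = 0.147). Of its 5 probes, 4 had differences of -3.73 to -1.60, while CUST_69_PI415929191, the brightest, had 0.11, so the probes of this sequence disagreed. EY435531 was at 6.70 and 8.41 against 7.20, 9.74 and 11.58 as the lowest, median and highest, and its 3 probes all had lower values, from -2.02 to -1.50. The Sitjar arrays, at 6.60 and 6.74, were as low as the lower Flix Factory array. EY434576 was at 8.66 and 8.02, below all 8 other Ebro arrays, which lay between 9.20 and 12.07 with a median of 9.72. Its difference was -1.72 (SE 0.50, limma adjusted p = 0.271), and all 4 tested probes had values between -1.97 and -1.20.

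Over the 16 sequences, Flix Factory differed from each of the 4 single sites in the same direction in all 16. The choice of extreme differences favours such sequences: the same held for 59 of the 65 higher and 67 of the 73 lower sequences at an unadjusted p under 0.05, and for 530 of all 1226. Flix Factory was the highest or the lowest Ebro array on both slides for 5 of the 8 higher and 7 of the 8 lower ones. Over all 1226 sequences it was the highest on both slides for 84 (6.85%) and the lowest for 85 (6.93%). Both arrays lay above all 8 others for 18 sequences (1.47%) and below all 8 for 24 (1.96%).

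Whether the Flix Factory pattern was the same on both slides could be asked without a test, since the slides share no array. Across the 1226 sequences the difference on slide 1 and that on slide 2 had a Pearson correlation of 0.53 and a Spearman correlation of 0.46, and 66.7% had the same sign. Sequences are not independent of each other, and both slides share the array position of each site. The same Pearson correlation, each site against its own remaining sites, was 0.46 at Mequinenza, 0.39 at Flix Reservoir, 0.27 at Faio and 0.04 at Riba Roja. The Spearman correlation was 0.35, 0.24, 0.19 and 0.19 in the same order. Of the 33 sequences at least 2-fold different at Flix Factory on slide 1, 30 had the same sign on slide 2 (90.9%). For Mequinenza this was nearly the same, with 38 of 42 (90.5%), while it was 12 of 16 for Flix Reservoir, 63 of 89 for Faio and 12 of 30 for Riba Roja. Flix Factory had the highest of the 5 correlations, a difference that was not tested, and no called sequence.

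**Figure D3:**
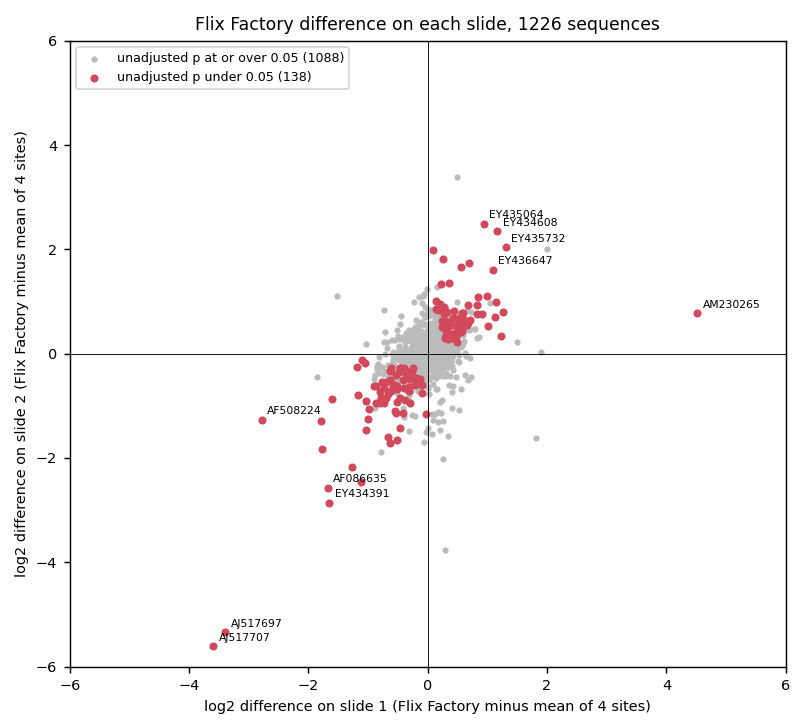
Log2 difference of the Flix Factory array from the mean of the 4 other Ebro arrays on slide 1 (horizontal axis) and on slide 2 (vertical axis), with 1 point per sequence (1226). Red points have an unadjusted p under 0.05 (138), and AM230265 stands apart through slide 1 alone, at 4.52 against 0.78.

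Set beside the other river sites, the Flix Factory profile was in the middle by median difference and by the count at an unadjusted p under 0.05. At least 2-fold differences were more frequent only at Mequinenza. They numbered 34 at Flix Factory, 58 at Mequinenza, 27 at Faio, 19 at Flix Reservoir and 9 at Riba Roja. The median absolute log2 difference from the remaining 4 sites was 0.18 at Flix Factory. It was 0.12 at Flix Reservoir and 0.13 at Riba Roja, both smaller, and 0.21 at Faio and 0.25 at Mequinenza, both larger. In the same limma fit 12 sequences (0.979%) were called for Faio and 42 (3.43%) for Mequinenza, and none for Flix Reservoir or Riba Roja. At an unadjusted p under 0.05 there were 81 sequences (6.61%) for Flix Reservoir and 90 (7.34%) for Riba Roja, fewer than the 138 of Flix Factory, and 216 (17.6%) for Faio and 282 (23%) for Mequinenza. Both arrays lay above and below all 8 others for 5 (0.408%) and 4 (0.326%) sequences at Flix Reservoir and for 8 (0.653%) and 16 (1.31%) at Riba Roja. At Faio these counts were 27 (2.2%) and 35 (2.85%), and at Mequinenza 51 (4.16%) and 61 (4.98%). These comparisons share arrays with each other, and the Mequinenza and Faio arrays are part of the mean that Flix Factory was set against. Without the 2 Mequinenza arrays Flix Factory still had 0 calls, with 123 sequences at an unadjusted p under 0.05 and a smallest limma adjusted p of 0.0725.

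**Figure D4:**
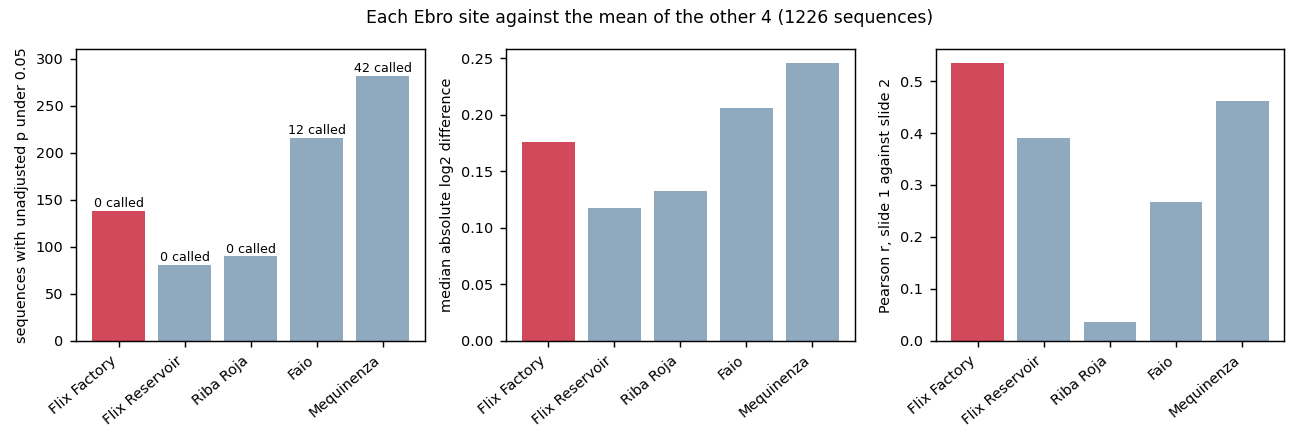
Each Ebro site against the mean of the other 4, over 1226 sequences. The bars give the number of sequences with an unadjusted p under 0.05 with the number called above it, the median absolute log2 difference, and the correlation of the differences on the slides. Flix Factory (red) has 138, 0.18 and 0.53, and 0 called.

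Flix Factory was then set against each site alone. The smallest distances were those to Flix Reservoir and Riba Roja: the median absolute log2 difference was 0.15 from Flix Reservoir and 0.15 from Riba Roja, against 0.27 from Faio and 0.30 from Mequinenza. This order was not tested. On slide 1 the values were 0.16, 0.15, 0.33 and 0.28 in the same order of sites, and on slide 2 they were 0.22, 0.21, 0.24 and 0.41. Faio and Mequinenza were thus the more distant on both slides, Faio only slightly so on slide 2. Their slide 2 arrays had the lowest shares of probes well above background, 26.1% and 22.5%. The median processed signals of these arrays were 12.64 and 15.24, against 3.22 to 5.82 on the other Ebro arrays of slide 2. Whether this bears on the order was not tested.

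**Figure D5:**
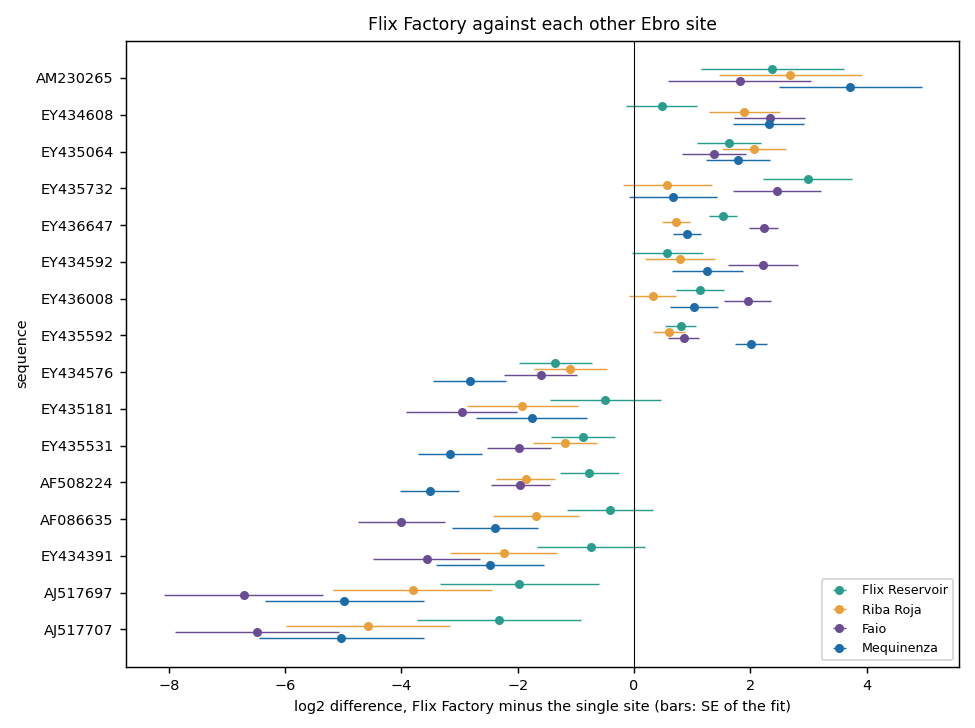
Log2 difference of Flix Factory from each single Ebro site (horizontal axis, bars are the SE of the fit) for the 16 sequences (vertical axis), with 1 colour per site. Among the lower sequences the difference from Flix Reservoir is the smallest of the 4 for all but EY434576, and for AJ517707 it is -2.32 against -6.48 from Faio.

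Against Flix Reservoir, the site that shares its place name, 3 sequences were called (0.245%), all lower at Flix Factory, and 57 (4.65%) had an unadjusted p under 0.05. EY436962 was at 9.99 and 10.61 on the Flix Factory arrays and at 11.31 and 12.20 on the Flix Reservoir arrays. Its log2 difference was -1.46 (SE 0.18, 2.75-fold, limma adjusted p = 0.0407). EY435362 had a difference of -1.31 (SE 0.19) and EY435645 one of -1.02 (SE 0.14), both with a limma adjusted p of 0.0498, just inside the threshold. On each of the 10 Ebro arrays the deviations of these 3 sequences from their own means lay within 0.43 of each other, and all 3 were lowest on Flix Factory replicate 1. Sitjar replicate 1 was lower than any Ebro array for all 3. Whether these entries overlap in sequence was not tested. EY436962 was below all 8 other Ebro arrays at Flix Factory, and both of its tested probes had lower values there. EY435362 was measured by 3 of its 5 probes and EY435645 by 1 of 5. With dim probes averaged in, the differences from the other 4 sites were -0.41 for EY436962 and -0.38 for EY435645.

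The calls against Flix Reservoir depended on single arrays. The count was 0 without Flix Reservoir replicate 2, Flix Factory replicate 2, either Faio array or either Sitjar array, and 1 when either of the Riba Roja arrays was left out. It was 2 without Flix Factory replicate 1, with 1 higher and 1 lower, and 6 without either Mequinenza array, with 2 higher and 4 lower. Without Flix Reservoir replicate 1 it was 3 with all of them higher, so these were not the same sequences. Without the block it was 0. Against Riba Roja no sequence was called (0%), with 52 (4.24%) at an unadjusted p under 0.05 and a smallest limma adjusted p of 0.724, and leaving out any single array also gave 0.

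Against Faio, EY436647 was called (0.0816%), with a log2 difference of 2.23 (SE 0.24, 4.68-fold, limma adjusted p = 0.021), and 211 sequences (17.2%) had an unadjusted p under 0.05. Faio was the lowest Ebro site for this sequence on both slides, at 6.78 and 6.81. The count was 0 without either Flix Factory, Faio or Sitjar array or without Flix Reservoir replicate 1, and 10 when either of the Riba Roja arrays was left out. It was 2 without Mequinenza replicate 1, 13 without Mequinenza replicate 2 and 0 without the block.

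Against Mequinenza, 15 sequences were called (1.22%), 6 higher (0.489%) and 9 lower (0.734%) at Flix Factory, by 1.98 to 11.4-fold, and 280 (22.8%) had an unadjusted p under 0.05. The largest difference was that of AF508224, whose probes disagree, at -3.51 (SE 0.51, limma adjusted p = 0.0208). EY435531 followed with -3.17 (SE 0.55, limma adjusted p = 0.0392). EY434797, with 1 tested probe, was at 7.30 and 7.64 at Flix Factory and at 10.24 and 10.03 at Mequinenza. Its difference from Mequinenza was -2.66 (SE 0.40, limma adjusted p = 0.0208), and from the mean of the 4 sites it was -1.53, or -0.46 with dim probes. Both Sitjar arrays were below Flix Factory for this sequence, at 6.95 and 5.69. EY435592, described above, was among the 6 higher ones, with a difference of 2.01 from Mequinenza. The count was 152 without Mequinenza replicate 1 and 0 without Mequinenza replicate 2, Riba Roja replicate 2 or either Flix Factory array. With 1 Mequinenza or Flix Factory array left, the spread in these fits came from the other sites, so these counts are no replicated test of the site. It was 2 without either Flix Reservoir array, 27 without either Faio array and 3 without the block.

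Level and probe number went with the small p-values. By mean log2 signal over the Ebro arrays, 17.4% of the dimmest 409 sequences, 12.3% of the middle 408 and 4.16% of the brightest 409 had an unadjusted p under 0.05. The median SE was 0.21, 0.19 and 0.15 in the same order. In the dimmest class 43 sequences were higher and 28 lower at Flix Factory, and in the middle class 17 were higher and 33 lower. Sequences measured by 1 probe had such a p in 15.7% of 446 cases, against 8.72% of the 780 with 2 or more probes.

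Sequences were also counted by the first 5 characters of their accession, which group consecutive database entries and say nothing of function. The share with an unadjusted p under 0.05 was 17.2% of 64 AJ517 entries and 13.2% of 273 EY435 entries, against 11.3% of all. Of 310 EY436 entries, 15 were higher and 19 lower at such a p. The share was 10.6% of 339 EY434 entries, 7.84% of 51 AM230 entries and 4.51% of 133 EY433 entries. The median log2 difference of these groups lay between 0.00 and 0.11, against 0.03 over all sequences, so no group was shifted as a whole by more than about 0.1.

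Of the 13529 probes with unflagged values on all 10 Ebro arrays, tested or not, 11 were well above background on both Flix Factory arrays and on none of the other 8 Ebro arrays, and none showed the converse. The first count was 7 for Flix Reservoir, 0 for Riba Roja, 9 for Faio and 6 for Mequinenza. The converse count was 0 for Flix Reservoir, 0 for Riba Roja, 5 for Faio and 2 for Mequinenza. The 11 probes belonged to 11 different sequences of 3 to 5 probes each, with no second probe of a sequence showing the pattern. For all but 1 of the 11, the Flix Factory mean lay below the mean detection limit of the other 8 arrays. The flags thus give no fold for these probes. Whether the dim signal of the Flix Factory arrays bears on the count was not tested. RXR, the retinoid X receptor, is a nuclear receptor that binds retinoids and pairs with other nuclear receptors, and in molluscs it is known as a target of organotin compounds. It was the gene symbol on the array, and none of its 6 probes was well above background on all 12 arrays, so it was not tested. CUST_2_PI415987745 and CUST_3_PI415987745 were above background on both Flix Factory arrays, and on 8 and 6 of the 10 Ebro arrays. Their scaled log2 signals were -10.11 and -9.94 at Flix Factory and -9.59 and -9.63 at the other Ebro sites.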

How the data were processed

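Total RNA from each pool (500 ng, per the labels' protocols) was labelled with Cy3 for a one-colour Agilent array. The intensity values were deposited as Agilent Feature Extraction output, version 10.5.1.1 per the file headers and 9.5 per the submitters' processing notes; the processed signal is linear, background-subtracted and not scaled between arrays. Other flags, coded 0 or 1, were deposited with them. The authors' deposited table of log2 values (correlation with the log2 processed signal 0.985 to 0.9999, slope 0.93 to 1.20) served as an alternative; its column medians were 3.01 and 3.09 for Flix Factory and 2.93 to 3.26 for the rest, and its centring is unknown. It lacked 212 of the 15208 spots that are not controls.

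Control spots (536 of 15744) and outlier-flagged spots were left out, and no spot was saturated. Copies of a probe were averaged; a probe counted as well above background where over 0.5 of its copies were. This left 2806 of 13654 probes, averaged per sequence and quantile normalised. One limma fit (version 3.58.1, R 4.3.3) held 6 site means and the slide as a block, with Benjamini-Hochberg adjustment over all sequences. The rule for the comparison set the block: replicate number, slide and scan are 1 factor per the file headers, and deviations of same-numbered arrays from their site means correlated across sequences in all 15 pairs of sites (r 0.46 to 0.75, median 0.64). Dim probes are given on a scale relative to each array's 75th percentile over the 2806 probes. The files hold no mean signal, so normexp used the median signal. The fit was also run on simulated data with independent noise and equal arrays, unlike these data, and no result here rests on it.

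Named sequences were those called against the 4 sites (none), the 8 highest and 8 lowest differences at an unadjusted p under 0.05, up to 3 called per single site, up to 5 dim probes with a lower limit per direction, and RXR. The comparison, rule and alternatives were chosen with earlier results of these data known. Alternatives covered scaling, background correction, filters, unit of test, variance model and leaving out arrays. No accession matched the RefSeq gene table of the species, so sequences carry no gene names.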

Additional observations from a re-analysis of the deposited data

Results flagged for a closer look

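One signal lay outside the tested probes. Probe CUST_5399_PI415929191 of EY436552 was well above background on both Flix Factory arrays and on none of the other 8 in the river. It was picked by this pattern, so the pattern is no separate support. Its Flix Factory mean was 1.34-fold above the mean limit of the other 8 arrays, which is no bound for each array. Its scaled log2 signal was -8.77 and -10.36 on the 2 Flix Factory arrays, against a measured mean of -11.23 elsewhere in the river, and 1 of the 2 Sitjar arrays was also above background. It is 1 of 5 probes of its sequence. The limit sets the Flix Factory mean of -9.56 against -9.99, the mean over the other arrays of each array's detection limit, or of the measured signal where that was higher. The detection limit of an array is its dimmest signal among probes well above background. The other 10 probes with this pattern give no fold, because their limit is under 1. Flix Factory replicate 2 lay below that limit mean and below Mequinenza replicate 2, at -10.21, so the limit rests on Flix Factory replicate 1. No test was run on these probes.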

How the results depend on the processing

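Against the other 4 Ebro sites, 0 sequences were called under 16 of 18 alternatives that kept all replicates or left out a site, no replicate block among them, and without any single array. The exceptions were 2 calls over sequences with at least 2 probes (EY436962 and EY435362, both lower) and 23 with array weights (9 higher, 14 lower), where Flix Factory arrays had a weight of 1.92 and Mequinenza arrays 0.378. At an unadjusted p under 0.05 the count was 53 to 301 over the 18, against 138. The median difference of all sequences moved from 0.03 to -0.10 under 75th percentile scaling. All 20 named sequences kept their direction under every alternative that measured them (28 or 29 each), some barely, as EY435592 at 0.02 with no filter. The alternatives reuse the same arrays and the sequences were picked for their differences, so this is no separate support. Under some alternative 8 were called, all 8 of them with array weights.

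Against Flix Reservoir (3 calls) there were 0 with 75th percentile or median scaling, quantile normalization before averaging, normexp, the authors' values, no replicate block, 10 Ebro arrays only, probes bright at any 1 Ebro site, no filter, probes or the median over probes; 1 with cyclic loess or limma-trend; 5 without the 2 Mequinenza arrays; 13 with array weights. Leaving out single arrays gave 0 to 6. Against Riba Roja it was 0 throughout, also leaving out arrays (0 to 0).

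Against Faio (1 call) there were 0 with 75th percentile scaling, cyclic loess, normexp, no replicate block, 10 Ebro arrays only, no filter or at least 2 probes; 2 with median scaling, probes or without the 2 Mequinenza arrays; 3 over probes bright at any 1 Ebro site; and 0 to 13 leaving out single arrays. Against Mequinenza (15 calls) there were 0 with no filter or array weights, 1 with 75th percentile scaling, 3 with no replicate block, 24 with cyclic loess, the authors' values or probes, 27 over probes bright at any 1 Ebro site, and 38 with median scaling (28 higher, 10 lower); 0 to 152 leaving out single arrays. A site left with 1 array was assumed to vary like the others. The causes were not tested. Outlier-flagged spots kept, an alternative added after seeing the data, changed no count by over 1.5 times. The number of arrays and the dim signal of many probes limit what could be found: 34.6% of the sequences could be tested.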
